A study of Sus scrofa with 2 samples.

Results

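The matrix of the porcine cumulus-oocyte complex (COC) and the proteases that act on it were followed through 5 genes, TNFAIP6, VCAN, ADAMTS1, PLAT and CTSL1, on the EMPV1 array. Members were chosen by the gene symbol that the platform annotation gives to a probe, which found 7 of 43794 probes for transcripts and 5 of 11938 named genes. VCAN and ADAMTS1 had 2 probes each and the other 3 genes 1 probe each. Of all probes, 18121 carried 1 symbol, 0 carried several and 25673 were unnamed here, so further probes for these genes may lie among the unnamed ones. The genes were picked with the ratios of these same arrays in view, and their ratios are therefore given as a description with no test.

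RNA came from 2 single COC, called COC7 and COC4 in the labels, which were aspirated from mature follicles of slaughterhouse ovaries of gilts. Both were of the Large White breed, and the labels name no treatment, age or stage for either. Array 1 held COC7 in Cy5 and COC4 in Cy3, and array 2 held the same 2 RNAs with the dyes exchanged, so the arrays are technical repeats and each side is 1 complex. No difference between the complexes could therefore be tested, and a difference between them says nothing of COC in general. Each probe gave a normalised log2 ratio per array. The ratio of array 2 was turned so that both run as COC7 over COC4, and their mean is called the contrast. Below 0 is the COC4 side. Each ± gives how far either array lay from that mean, which is also the size of the dye part, the mean of both ratios before turning. Ratios were read as Cy5 over Cy3, which is likely because the labels list Cy5 as the first channel but is not stated for the values, and with the opposite reading every sign would turn and the complexes would change places.

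In a preovulatory follicle, the cumulus cells around the oocyte lay down a matrix of hyaluronan and spread apart, a step called cumulus expansion. HAS2 makes hyaluronan, TNFAIP6 (TSG-6) moves heavy chains of inter-alpha-trypsin inhibitor onto it, PTX3 binds these heavy chains, and versican, the product of VCAN, is a large proteoglycan that holds hyaluronan through its link domain. ADAMTS1 cleaves versican, PLAT, the tissue-type plasminogen activator, turns plasminogen into plasmin, and cathepsin L is a cysteine protease of lysosomes that can also be secreted. In rodents ADAMTS1 and cathepsin L are induced in granulosa cells through the progesterone receptor at ovulation. A COC holds both cumulus cells and the oocyte, so in these data fewer cumulus cells and less transcript per cell cannot be told apart.

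All 7 probes lay on the COC4 side in the mean, as 49.1% of all probes did. TNFAIP6 had a contrast of 2.42-fold, VCAN of 2.14-fold as the mean of its probes, CTSL1 of 1.97-fold, PLAT of 1.94-fold and ADAMTS1 of 1.32-fold. Of the 7 probes, 3 were at or past 2-fold on the COC4 side (0.0822% of all probes), and 5 at or past 1.5-fold (0.788%). Since the members were picked on this contrast, nothing is read from these counts beside the shares. The 5 probes of TNFAIP6, VCAN, PLAT and CTSL1 were below 0 on both arrays, as were 18.4% of all probes, whereas both probes of ADAMTS1 were above 0 on array 1.

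**Figure D1:**
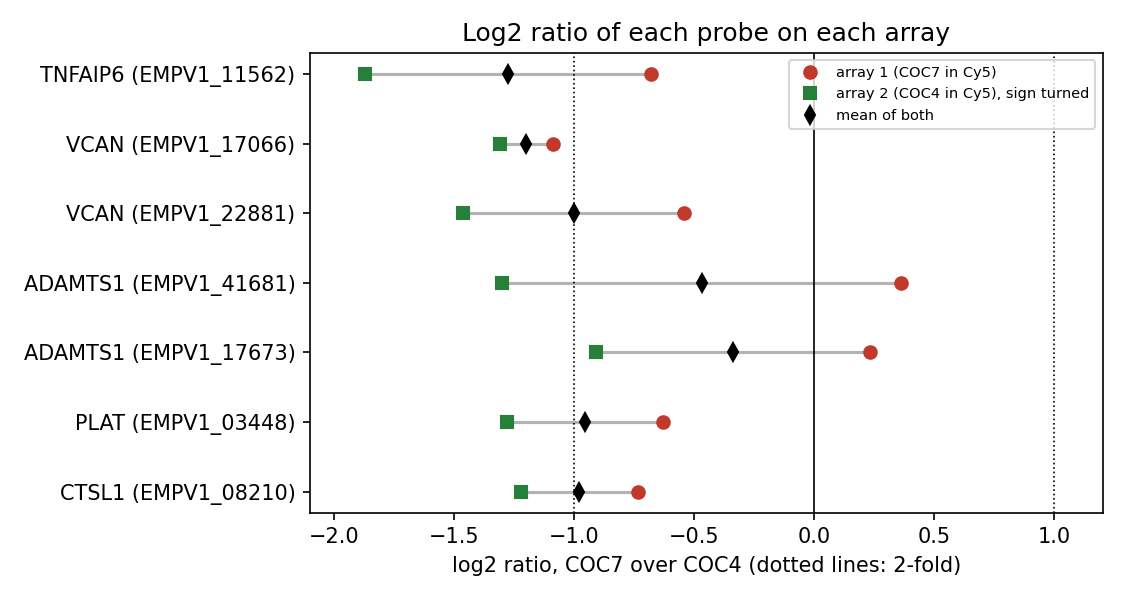
Log2 ratio of COC7 over COC4 for the 7 probes on array 1 (circles) and on array 2 with its sign turned (squares), with their mean (diamonds). The dotted lines mark 2-fold. Every probe was lower on array 2 than on array 1, and the ADAMTS1 probes were the ones that crossed 0, from 0.23 and 0.36 on array 1 to −0.91 and −1.30 on array 2.

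TNFAIP6, the hyaluronan-linking protein, was measured by the probe EMPV1_11562 and had the widest contrast of the 5 genes. Its log2 ratio was −0.68 on array 1 and −1.87 on array 2, averaging −1.28 ± 0.60. Both arrays put it below 0, but array 2 by far more than array 1. Over all probes, 13 had a contrast as low as this or lower, counting TNFAIP6 itself.

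VCAN, the hyaluronan-binding proteoglycan, was measured by a pair of probes. The probe EMPV1_17066, annotated to a RefSeq transcript of versican, had −1.09 on array 1 and −1.31 on array 2, averaging −1.20 ± 0.11, and was the one probe of the 7 at 2-fold on each array separately (0.0297% of all probes). The probe EMPV1_22881, named VCAN without a transcript, had −0.54 and −1.46, a mean of −1.003 ± 0.46, which lies just past 2-fold. The first probe was lower than the second by 0.55 on array 1 and higher by 0.15 on array 2, so their order was not kept between the arrays, and their contrasts differed by 0.20, which is less than the distance of the second probe to either array.

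The proteases PLAT and CTSL1 lay just inside 2-fold and close to each other. PLAT, measured by EMPV1_03448, had −0.63 on array 1 and −1.28 on array 2, averaging −0.95 ± 0.33. CTSL1, measured by EMPV1_08210, had −0.74 and −1.22, a mean of −0.98 ± 0.24. The transcript given for the CTSL1 probe is listed in the RefSeq table of Sscrofa11.1 under the symbol CTSV, with CTSL1 and CTSL as synonyms, while another gene carries the symbol CTSL there. No other probe bears a cathepsin L symbol in the platform annotation, so the value stands for the transcript that the older annotation calls cathepsin L1. PLAT, CTSL1, TNFAIP6 and VCAN EMPV1_17066 were the 4 of the 7 probes at 1.5-fold or more on the COC4 side on each array (0.228% of all probes).

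ADAMTS1, the versican-cleaving protease, had the smallest contrast and the largest dye part. Its probe EMPV1_41681 had 0.36 on array 1 and −1.30 on array 2, averaging −0.47 ± 0.83, and EMPV1_17673 had 0.23 and −0.91, a mean of −0.34 ± 0.57. Both probes thus showed the same pattern, with opposite sides on the 2 arrays, and the mean of each was smaller than the distance to either array. The gene mean of 0.30 on array 1 and −1.10 on array 2 left a contrast of −0.40 ± 0.70, and the side of ADAMTS1 was not settled by the dye swap.

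Ordered by contrast, the genes ran from TNFAIP6 over VCAN, CTSL1 and PLAT to ADAMTS1. TNFAIP6 lay 0.13 above VCAN on array 1 and, with a difference of −0.48, below it on array 2, so their order was not kept. VCAN lay below CTSL1 on both arrays, by a difference of −0.078 on array 1 and −0.17 on array 2. PLAT differed from CTSL1 by 0.11 on array 1 and −0.061 on array 2, and their order was not kept either. ADAMTS1 lay above PLAT on both arrays, by 0.93 on array 1 and by 0.18 on array 2, where all 5 genes were on the COC4 side. TNFAIP6 differed from ADAMTS1 by −0.98 on array 1 and −0.77 on array 2.

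The dye part was above 0 for all 7 probes, as for 51.2% of all probes, so that each ratio was shifted toward Cy5 on both arrays. It ran from 0.11 for VCAN EMPV1_17066, a value that 30.6% of all probes reached or passed, to 0.83 for ADAMTS1 EMPV1_41681, which 0.269% reached or passed. For TNFAIP6 it was 0.60. Array 2 alone therefore placed 6 of the 7 probes at 2-fold or more on the COC4 side (0.384% of all probes) and array 1 alone 1 (0.511%). How far the dye part shifts the mean of a probe was not tested, as the exchange of the dyes cancels only what is equal on both arrays.

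**Figure D2:**
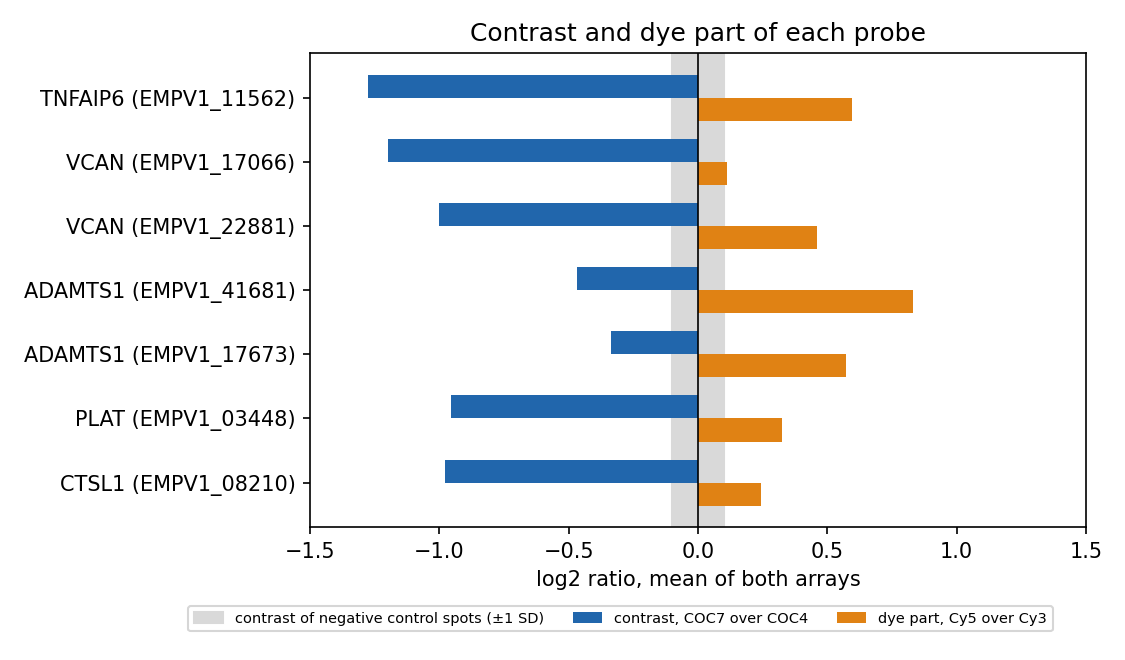
Contrast between the complexes (blue bars, COC7 over COC4) and dye part (orange bars, Cy5 over Cy3) of the 7 probes, as log2 ratios over both arrays. The grey band is 1 SD (0.10) of the contrast of negative control spots on either side of 0, and the dye part exceeded the contrast in size for both ADAMTS1 probes and for no other probe shown.

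Spots that measure no porcine difference gave the technical scale. Over the 153 negative control spots the contrast had an SD of 0.10 and reached 0.30 at most, over the 604 dark corner spots it had an SD of 0.11 and reached 0.88, and over the 320 E1A spike-in spots, whose RNA was labelled apart from that of the complexes, an SD of 0.14 and at most 0.51. The E1A spots were not centred on 0, with a median contrast of 0.14, and their dye part had an SD of 1.24. The paper labelled spike mix A with Cy3 and mix B with Cy5. The dye part of these spots can therefore also hold the difference between the mixes, and its SD is no measure of the dye effect alone. Over all 43794 probes the SD of the contrast was 0.19 and that of the dye part 0.25. The spreads of the contrast over the control spots are technical and hold no difference between complexes. Since the genes were picked on their contrast, the distance of the genes from the control spots supports nothing. The contrasts of ADAMTS1, at 0.47 and 0.34 in size, were within the range of the E1A and dark corner spots. Signals of the single channels were not analysed here, so no level or detection call is computed for any gene, and the scatter at the signal of these probes is not known. The paper itself names ADAMTS1 among spots of low intensity in its COC data. Whether low signal bears on the opposite signs of ADAMTS1 was not tested.

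Across the plane of the 2 arrays the turned ratios of all probes ran in opposite directions, with a Pearson's r of −0.27 across probes, which are not independent replicates. The 5 probes of TNFAIP6, VCAN, PLAT and CTSL1 lay in the sparse corner where both arrays are on the COC4 side. The ADAMTS1 probes lay apart from them, above 0 on array 1 and below 0 on array 2.

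**Figure D3:**
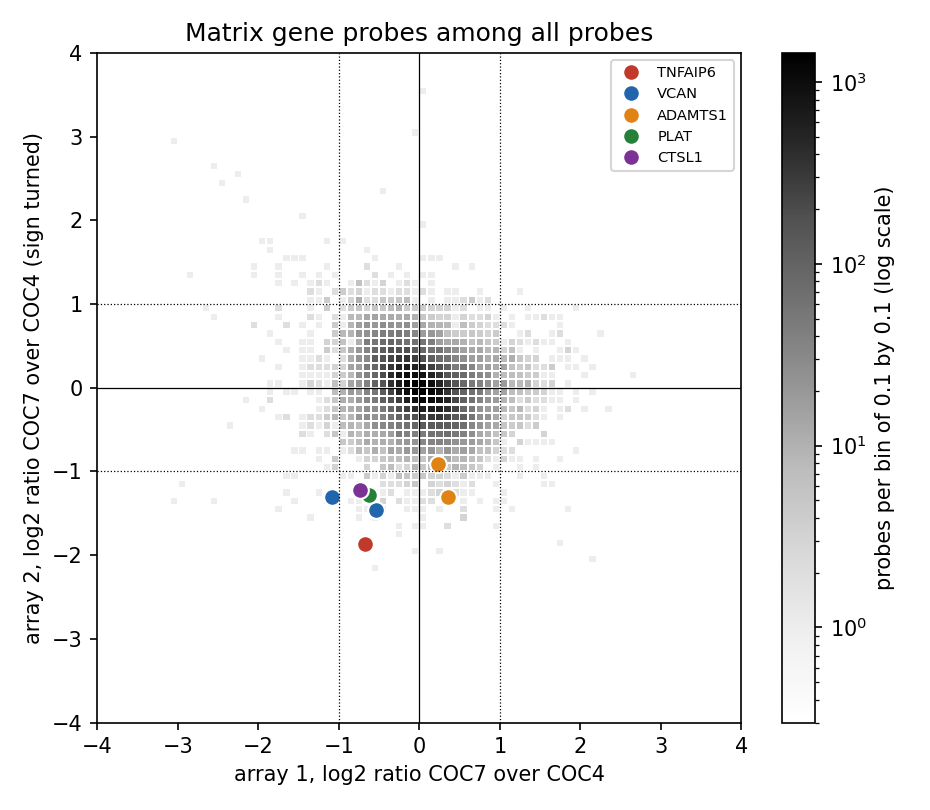
Turned log2 ratio on array 1 (horizontal) and array 2 (vertical) of all 43794 probes in bins of 0.1 (grey, darker for more probes) with the 7 matrix and protease probes in colour. Dotted lines mark 2-fold, and VCAN EMPV1_17066, at −1.09 and −1.31, is the one coloured point past 2-fold on both axes.

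The genes most like each of the 5 were found by the distance between gene means in the plane of the 2 log2 ratios, over 2 arrays only. Since the 5 genes were picked with these ratios in view, closeness among them is set by the choice and is given as a description. CTSL1 was the nearest of all named genes to PLAT, and PLAT the nearest to CTSL1, at a distance of 0.12. HAS2, the hyaluronan synthase, was the second nearest gene to PLAT (0.17), followed by PERP, a membrane protein of desmosomes (0.18). VCAN was the second nearest to CTSL1 (0.18), followed by TMSB10, an actin-binding thymosin (0.20). Nearest to VCAN were NR5A2, a nuclear receptor of granulosa cells (0.13), AKR1CL1, an aldo-keto reductase (0.17), and CTSL1. Nearest to TNFAIP6 were NR5A2 (0.39), TFPI2, an inhibitor of serine proteases (0.47), and VCAN (0.50). ADAMTS1 had no other member near it. Its nearest genes were ANXA2, annexin A2 (0.077), ARMCX2 (0.12) and DKK1, a secreted Wnt inhibitor (0.14), and PLAT, the closest of the other 4, was only in place 1651.

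Among the other genes that make and link hyaluronan, HAS2 had the widest contrast. HAS2, the main synthase of the cumulus, had −0.47 on array 1 and −1.31 on array 2, which gives −0.89 ± 0.42, or 1.85-fold. HAPLN1, a link protein that ties proteoglycans to hyaluronan and the next protein-coding gene beside VCAN in the RefSeq table, had 0.21 and −1.42, a mean of −0.61 ± 0.81, a pattern like that of ADAMTS1. It is given although its signs were opposite, and was picked after its values were seen. PTX3, the pentraxin of the expanded matrix, was picked likewise and had 0.78 and −0.13. HAS1, the second synthase measured and also picked for its role, lay on the COC7 side on both arrays, at 0.45 and 0.35. Besides TNFAIP6, 12 genes of this list were measured. Of these, 7 lay below 0, 3 of them on both arrays, and 2 were at or past 1.5-fold on the COC4 side. Among all 11938 named genes, 5726 lay below 0, 2198 on both arrays, and 115 were at or past 1.5-fold on that side. The 12 genes had a median contrast of −0.023, against 0.0062 over all named genes.

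The heavy chains that TNFAIP6 transfers to hyaluronan come from the inter-alpha-trypsin inhibitor genes, here ITIH1, ITIH2 and ITIH3, which are made mainly in liver. ITIH3 had 5 probes that disagreed. One of them had −0.65 on array 1 and −1.26 on array 2, close to PLAT, while the other 4 had contrasts between −0.15 and 0.034. ITIH1 had −0.018 ± 0.31, ITIH2 −0.051 ± 0.087 and AMBP, the precursor of the light chain bikunin, −0.028 ± 0.29. These 4 genes were picked for their role, after their values were seen.

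Receptors and breakdown enzymes of hyaluronan were spread around 0, with a median of −0.00028. Of 10 measured genes 5 lay below 0 and 5 above, where 48.0% of all named genes lay below. HYAL2, a hyaluronidase of the cell surface, lay farthest from 0, with 0.22 and 0.77 on the arrays and a mean of 0.49 ± 0.27 on the COC7 side, and TMEM2, a cell surface hyaluronidase, had 0.16 ± 0.22. CD44, the main hyaluronan receptor of cumulus cells and picked for that role, had −0.032 and −0.18. None of the 10 genes was at or past 1.5-fold.

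Among 22 proteoglycan genes other than VCAN, 14 lay below 0 and 8 above, where 48.0% of all named genes lay below. The 22 genes had a median of −0.010, and 0 gene means were at or past 1.5-fold on either side. SPOCK3, a testican, lay farthest from 0 at −0.50 ± 0.33, but its 4 probes ran from −1.15 to 0.14. GPC3, a glypican anchored to the membrane, had −0.45 on array 1 and −0.53 on array 2, and the arrays differed little. ACAN, aggrecan, which like versican binds hyaluronan, was picked for that role and had 0.079 and 0.18.

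**Figure D4:**
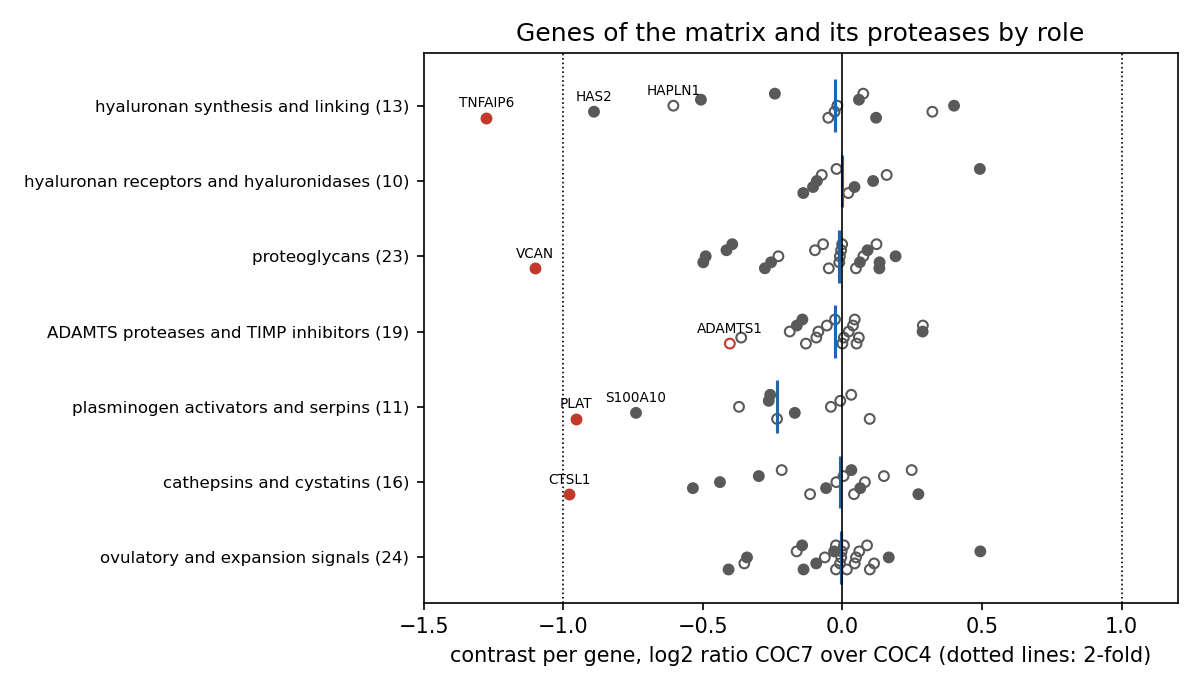
Contrast per gene (log2 ratio COC7 over COC4, mean of its probes) for 7 lists of genes by role, with the number measured in brackets. Red circles are TNFAIP6, VCAN, ADAMTS1, PLAT and CTSL1 and grey circles all others, filled where both arrays had the same sign and open where they had not, and blue lines are list medians, of which that of plasminogen activators and serpins lay lowest at −0.23.

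Beside ADAMTS1, the proteases of its family and their TIMP inhibitors showed no common side, with a median of −0.014. Of 18 measured genes 10 lay below 0 and 8 above, where 48.0% of all named genes lay below. Of these 18, 15 had opposite signs on the arrays, as had 7321 of the 11938 named genes. TIMP3, a matrix-bound inhibitor, had −1.14 on array 1 and 0.41 on array 2, averaging −0.36 ± 0.77, and TIMP2, a secreted inhibitor, had 1.22 and −0.64, a mean of 0.29 ± 0.93, so that neither had a settled side. The other versican-cleaving members ADAMTS4, ADAMTS5, ADAMTS9, ADAMTS15 and ADAMTS20, given for this role, had contrasts of −0.056, −0.094, −0.19, 0.058 and −0.086. None of these gene means had the same sign on both arrays. ADAMTS9 had 3 probes, however, with −0.39 and −0.22, −0.52 and −0.012, and −0.26 and 0.26 on array 1 and array 2.

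In the plasminogen system, 8 of 10 measured genes besides PLAT were on the COC4 side, 4 of them on both arrays, with a median of −0.20. Over all named genes 48.0% were below 0 and 2198 of 11938 on both arrays, with a median of 0.0062. S100A10, the partner of annexin A2 in the complex that binds plasminogen and tissue-type plasminogen activator at the cell surface, had −0.43 on array 1 and −1.05 on array 2, which gives −0.74 ± 0.31, or 1.67-fold. It was the one of these 10 genes past 1.5-fold. ANXA2, annexin A2 itself, had 0.37 and −1.12 as the mean of its 3 probes, opposite signs like ADAMTS1. The urokinase gene PLAU, the second plasminogen activator, had −0.17 and 0.089, its receptor gene PLAUR 0.099 and −0.57, and SERPINE2, a serpin of granulosa cells that inhibits both activators, −0.27 and 0.26. For none of these 3, picked for their role, did the arrays share a side. Of the other serpins measured, SERPINB2 had −0.47 and −0.048, SERPINI1 −0.082 and −0.26, and SERPINA5 −0.32 and −0.21. SERPINF2 had opposite signs, at −0.31 and 0.50.

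Among 15 cathepsin and cystatin genes other than CTSL1, 7 lay below 0 and 8 above, where 48.0% of all named genes lay below. The 15 genes had a median of 0.0039, and 0 gene means were at or past 1.5-fold. CTSC, which activates serine proteases of leukocytes, had −0.31 and −0.77, a mean of −0.54 ± 0.23, from probes at −0.81 and −0.26. CTSA, a lysosomal carboxypeptidase, had −0.57 and −0.31, a mean of −0.44 ± 0.13. CST3, cystatin C, a secreted inhibitor of cathepsins picked for that role, had 0.91 and −0.61.

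Genes that signal for cumulus expansion were spread around 0. Of 24 measured, 14 lay below 0 and 10 above, where 48.0% of all named genes lay below. The 24 genes had a median of −0.0066, and 0 gene means were at or past 1.5-fold. PTGES, the prostaglandin E synthase, had −0.37 and −0.45, a mean of −0.41 ± 0.039, whereas PTGS2, which supplies its substrate and was picked for that role, had −0.39 and 0.26. JUN, an early response transcription factor, had 0.97 and 0.014, a mean of 0.49 ± 0.48 that rests on array 1. Also picked for their role, the progesterone receptor gene PGR had 0.49 and −0.49, a contrast of −0.0028, and EREG, a ligand of the EGF receptor that drives expansion in response to luteinising hormone, 0.17 and −0.16.

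Over all 7 lists without the 5 genes, 65 of 111 measured genes lay below 0, where 48.0% of all named genes did, and 46 above. The 111 genes had a median of −0.018. Past 1.5-fold were 3 on the COC4 side, HAS2, HAPLN1 and S100A10, and 0 on the COC7 side. Over all named genes, 115 were past 1.5-fold on each side.

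Marker lists of the cells a COC can hold are given beside these values. Of 15 measured cumulus and granulosa markers 12 were below 0, where 48.0% of all named genes were, and 7 had opposite signs on the arrays. Their median was −0.15 (−0.29 on array 1 and −0.023 on array 2), with NR5A2 at −1.12 ± 0.37 and INHA, the inhibin alpha subunit, at −0.86 ± 1.83. Of 17 oocyte markers 12 were above 0, as were 6212 of the 11938 named genes, and 9 had opposite signs on the arrays. Their median was 0.15 (0.0069 on array 1 and 0.38 on array 2), with ZAR1, a maternal-effect factor, at 0.70 ± 0.20 and FIGLA, a transcription factor of the oocyte, at 0.56 ± 0.069. The cumulus median thus lay away from 0 mainly on array 1 and the oocyte median mainly on array 2. Both lists had a median dye part below 0, at −0.18 for cumulus and −0.24 for oocyte markers. By its definition, a dye part below 0 lowers array 1 and raises the turned array 2. Markers of theca, stroma and vessels had a median of −0.0092 over 15 genes, with RGS5, a marker of pericytes, at −2.13 ± 0.91 and CLDN5, of vessel endothelium, at −0.30 ± 0.17. PECAM1, VWF, KDR, TEK and ESAM, further vessel genes picked for their role after their values were seen, had contrasts between −0.0066 and 0.044. PDGFRB and ACTA2 of the same list, picked likewise, had −0.045 ± 0.011 and −0.20 ± 1.04. RGS5 was the 1 gene of this list past 1.5-fold on either side. Blood and immune markers had a median of 0.046 over 13 genes, GZMB, a granzyme, at 0.28 ± 0.11 and LYZ, lysozyme, at 0.19 ± 0.0011. The part of the cell makeup in the ratios of the matrix genes was not tested.

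On the slide, the 7 probes lay in 7 different blocks of its grid. The median contrast of all probes in these blocks ran from −0.034 at CTSL1 to 0.060 at ADAMTS1 EMPV1_41681, which is small beside the contrast of any of the 7 probes. On array 1 alone, the block median at EMPV1_41681 was 0.15, beside 0.36 for the probe. At ADAMTS1 EMPV1_17673 it was −0.099, beside 0.23 for the probe. On the chromosomes, RIF1 beside TNFAIP6 had −0.045, XRCC4 beside VCAN −0.0049, CYYR1 beside ADAMTS1 −0.21, AP3M2 beside PLAT 0.25 and ZNF782 beside the CTSL1 transcript −0.11. Apart from HAPLN1, none of these neighbouring genes was at or past 1.5-fold. Only VCAN had a measured gene on both sides. The gene on the other side of TNFAIP6, ADAMTS1, PLAT and the CTSL1 transcript had no value here.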

How the data were processed

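The authors amplified and labelled RNA of single COC, hybridised it as a dye swap, read the images in GenePix Pro with background subtracted, and compared the complexes with limma in FlexArray. The deposited values are log2 ratios. That the base is 2 was read from the fold lines of their MA plot, while the direction and the method of normalisation stay unknown here. A second deposited table, with 45220 spots, holds the same value pairs for all 43794 probes and adds control spots. It was joined to the first by these pairs and gave probe names and spreads that do not depend on which array is which.

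The contrast is the mean of array 1 and of array 2 with its sign turned. Probes of a gene were averaged. With 1 COC on each side no test was made. Shares past a fold were counted over all probes, at 2-fold and at 1.5-fold. The genes, the 7 lists by role and the 4 marker lists were chosen with earlier results of these data known. Genes named were the 5 genes, those of each role list past 1.5-fold whose arrays shared a sign or else the 2 farthest from 0, the 2 farthest of each marker list, the 3 nearest genes to each member and, added later, the genes beside each member on its chromosome. Others were picked for their role after their values were seen. Symbols not named in the platform annotation were left out. Slide positions assume rows of 85 spots in the order of the probe numbers, cut into 14 by 10 blocks. Gene order was taken from RefSeq, Sscrofa11.1. The arithmetic was tested on simulated data. Python 3.11.15, numpy 2.4.6, pandas 2.3.3 and matplotlib 3.10.9 were used. Sequences of the probes are not shown here.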

Additional observations from a re-analysis of the deposited data

How the results depend on the processing

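The number of arrays, 1 complex on each side and the unknown channel signals limit every value. The second deposited table holds the same values and is no independent setting. Centring the arrays on their medians moved no contrast of the 5 genes by more than its spread. Array 1 alone gave −0.68 for TNFAIP6, −0.81 for VCAN, −0.63 for PLAT, −0.74 for CTSL1 and 0.30 for ADAMTS1, and array 2 alone −1.87, −1.39, −1.28, −1.22 and −1.10. With the ratio taken as Cy3 over Cy5 they were 1.28, 1.10, 0.95, 0.98 and 0.40, by construction. The count of 3 probes at 2-fold on the COC4 side was 1 on array 1, 6 on array 2, 0 with the ratio turned, 5 at 1.5-fold and 1 at 2-fold on each array. It was 2 with block medians removed, since VCAN EMPV1_22881 fell inside 2-fold, and 4 with the arrays scaled to the same SD, since CTSL1 passed it.

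List medians, which include the 5 genes, were on array 1 and array 2 −0.14 and 0.037 for hyaluronan synthesis and linking, 0.072 and −0.073 for hyaluronan receptors and hyaluronidases, −0.093 and −0.065 for proteoglycans, −0.16 and 0.011 for ADAMTS proteases and TIMP inhibitors, −0.27 and −0.21 for plasminogen activators and serpins, −0.065 and −0.051 for cathepsins and cystatins and −0.100 and −0.0027 for expansion signals. Turned, the medians of proteoglycans, plasminogen genes and cathepsins were 0.011, 0.23 and 0.0090. With block medians removed, proteoglycans had −0.044 and cathepsins −0.027, and cathepsins had 0.00055 when counted by probe and −0.00086 with the arrays scaled to the same SD. The cause was not tested.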
